A study of Mus musculus with 12 samples.

Results

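The translation initiation factor genes of the mouse were followed here across 4 sorted sub-populations of the ML23 leukemia line. They were taken as every protein-coding gene of the deposited expression table whose symbol starts with Eif and a digit, which gave 54 of 20202 listed genes. The genes were grouped by the factor they belong to: 13 genes of the ternary complex and of start codon selection, 4 eIF2 kinases, 5 subunits of eIF2B, 14 genes of eIF3, 11 genes of the cap-binding eIF4 factors, 4 inhibitors of eIF4E, and 3 genes of eIF5A and eIF6.

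ML23 is a leukemia made from cells of rtTA-transgenic mice (Jax strain 6965) that were transformed with lentiviruses carrying *Meis1*, *HoxA9* and *HoxB5*, and it was passaged in C57BL/6 mice. Leukemic ZsGreen+ bone marrow cells were sorted by 4 surface markers. P9 carried CD9, cKit and Mac1 without CD48. The others lacked CD9 and carried CD48, together with both cKit and Mac1 in P10, with cKit alone in P11 and with neither in P12. P11 is the sub-population that the study calls leukemic stem cells, and no normal marrow is among the samples. RNA-seq was available for 12 libraries, 3 per sub-population and 100 cells per library. All of them derive from 1 line, and the sample labels do not say which library came from which mouse, so the p-values measure only the spread between these libraries.

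Protein synthesis starts when eIF2, bound to GTP, brings the initiator methionine tRNA to the small ribosomal subunit, where eIF3 serves as the scaffold on which the other factors meet. The mRNA arrives through its cap, which is bound by eIF4E and linked by eIF4G to the helicase eIF4A. The cell restrains the process at both entry points: stress kinases phosphorylate eIF2 and so block its recharging by the exchange factor eIF2B, and the 4E-binding proteins hold eIF4E away from eIF4G.

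Values are CPM, the reads of a gene scaled to the total alignments of its library. The spacing of the lowest values puts the libraries at 13441854 to 21307424 alignments. Most of these inferred totals are above the read yield per sample that the paper states, and the reason was not tested. Differences were tested with limma on log2(CPM + 0.5) over 13450 genes that reached 1 CPM in at least 3 libraries. A gene was called at an adjusted p under 0.1 and a difference of more than 2-fold, which are the cutoffs of the study. All 54 initiation factor genes passed the filter on low values. *Eif5a2* passed it without any P9 library, and *Eif4ebp3* was at 2.11 CPM or less in every library.

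P9 stands apart from the other libraries in its makeup. All 7 neutrophil markers (*Ngp*, *Camp*, *Ltf*, *S100a8*, *S100a9*, *Mmp8*, *Ly6g*) were highest in P9, where they summed to 98810 to 111640 CPM, against 193 to 674 in P11 and 272 to 399.6 in P12. In P10 replicate 3 they reached 10968, against 1184 and 1733 in the other P10 libraries. The 10 most abundant genes held 13.5 to 14.8% of each P9 library and 4.41 to 6.15% of the others. Monocyte and macrophage markers, 6 genes, summed to 9927 to 12812 CPM in P9, 18766 to 21935 in P10 and 5082 to 5899 in P11. In P12 replicate 3 they reached 13417, against 5096 and 5526 in the other P12 libraries. The single monocyte and macrophage markers did not all follow their sum. Between P11 and P9, 3 of the 6 were called higher in P11 and 2 lower, with a median log2 difference of 1.87. Shares of all genes tested were 46.8% higher and 11.2% lower. Erythroid markers, 7 genes, summed to 86.5 to 214 CPM in P9, 83.3 to 108 in P10, 45.3 to 59.8 in P11 and 62.1 to 64.6 in P12, and all 4 that were tested were lower in P11 than in P9. In bulk RNA, fewer cells of a type and less of an RNA per cell cannot be told apart, and the part of these cells in the differences below was not tested.

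Initiation factor mRNA was lowest in P9 and highest in P11. Summed over the 54 genes it was 3530 ± 414 CPM (P9), 6396 ± 117 (P10), 8946 ± 368 (P11) and 7708 ± 477 (P12) (SD, n = 3 each). The sum was 2.53 times as high in P11 as in P9, and 1.16 times as high as in P12. By group mean, P9 was the lowest sub-population for 49 of the genes and P11 the highest for 40. The order P9, P10, P12, P11 held for 37 of the 54. Such counts by group mean were not made over all genes, which leaned the same way against P9. Without regard to calls, 73.9%, 73.8% and 73.5% of all genes tested were above P9 in P11, P10 and P12. Of the 54 genes, 50, 53 and 52 were.

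All 3 P9 libraries lay below the other 9 in 43 initiation factor genes, or 79.6% of them, against 45.9% of all genes tested. The 3 P11 libraries lay above the other 9 in 19 (35.2%), against 12.8% of all genes, and below the other 9 in 0 (1.63% of all genes). P10 lay above all others for *Eif4ebp1* and *Eif4g3* (2 genes; 5.49% of all genes) and below all others for *Eif4enif1* (1 gene; 1.17%). P12 lay above all others only for *Eif4enif1* (1 gene; 0.892%).

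**Figure D1:**
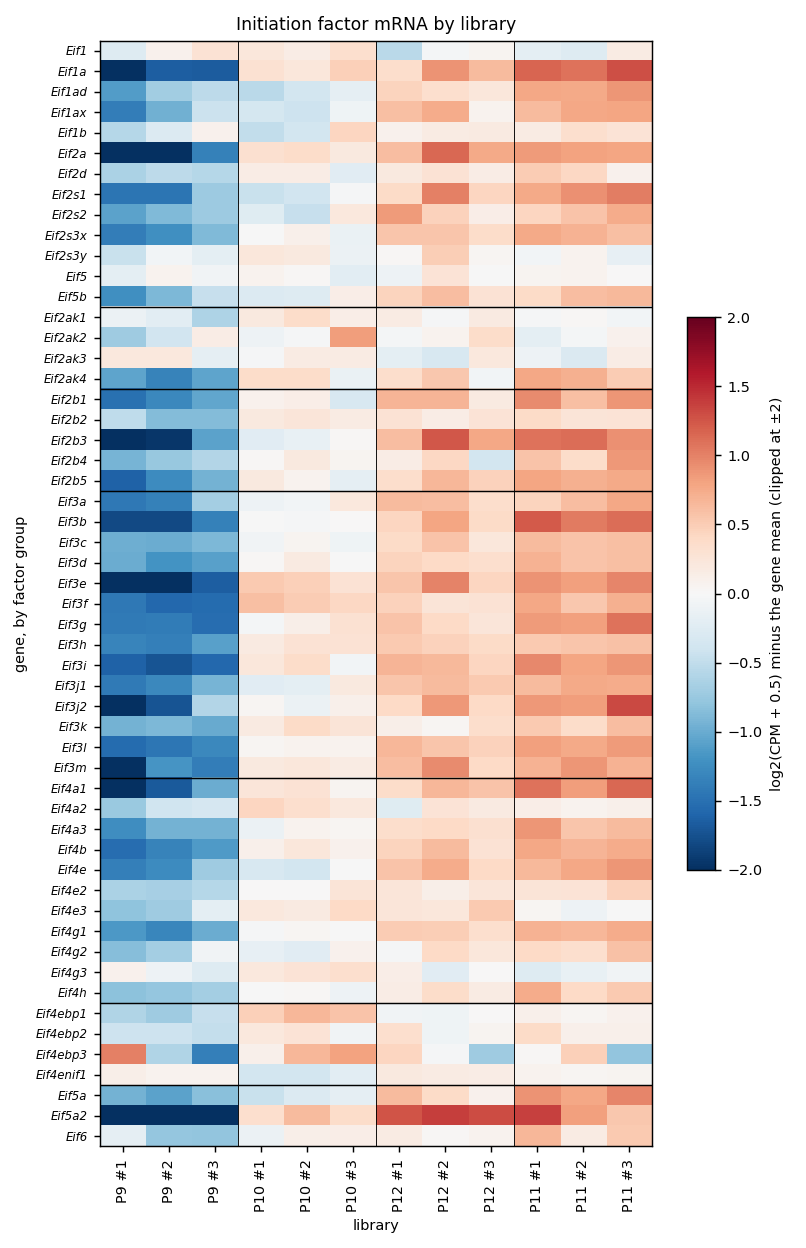
Level of each of the 54 initiation factor genes in each of the 12 libraries, as log2(CPM + 0.5) minus the mean of the gene over all libraries, clipped at ±2. Rows are genes grouped by factor, with black lines between groups, and columns are libraries in the order P9, P10, P12, P11. The P9 columns are blue for 43 genes whose 3 P9 libraries lie below the other 9, and *Eif2ak3*, *Eif1* and *Eif5* show little contrast.

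Against P9, 37 of the 54 genes were higher in P11 and 0 were lower, where 46.8% of all genes tested were higher and 11.2% lower. The median log2 fold change was 1.69 for the initiation factor genes and 0.90 for all genes tested. P12 was higher than P9 for 33 genes (43.2% of all genes) and P10 for 26 (34.1%), again with 0 lower (background 11.1% and 8.33%). Against P9, P10 and P12 averaged, called the mean of the others from here on, P11 was higher for 18 genes and lower for 0 (19.9% and 5.2% of all genes). P11 was higher than P10 for 6 genes and lower for 0 (12.8% and 7.52%), a share of 11.1% that lies near the background. These comparisons share their P9, P10 and P11 libraries, so they are not independent of each other.

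No initiation factor gene was called between P11 and P12 (0 of 54) or between P12 and P10 (0 of 54). In the first of these 0.0223% of all genes were higher and 0% lower, and in the second 6.25% and 5.83%. The first share rests on 3 genes and moved with the libraries: 82 genes of all were called without P12 replicate 2, 41 without P9 replicate 3, 30 without P10 replicate 3, 6 without P12 replicate 3, 4 without P11 replicate 2 and 1 without any other library. At an unadjusted limma p under 0.05, 14 of the 54 (25.9%) differed between P11 and P12, against 13.8% of all genes tested. Between P12 and P10, 28 (51.9%) did, against 38.8% of all genes tested. The median log2 difference of P11 over P12 was 0.20, against 0.10 for all genes, and 0.13 against 0.09 without P12 replicate 3.

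The scale of the libraries bears on these counts, since most genes were higher in P11 than in P9. After rescaling of each library by its median ratio to the others, the median of all genes for P11 over P9 moved from 0.90 to 0.45, and with quantile normalization to 0.11. The initiation factor genes stayed above it by 0.78, 0.74 and 0.90 on the log2 scale under the deposited scale, the rescaling and the quantile normalization. They then had 37, 30 and 27 higher calls against P9 and 18, 6 and 5 against the mean of the others. Of all genes, 33.8% were higher and 16.9% lower in P11 than in P9 after rescaling, and 23.6% and 20.2% after quantile normalization. Of all genes, 12.9% were higher and 7.34% lower in P11 than the mean of the others after rescaling, and 8.22% and 9.18% after quantile normalization. *Eif1a*, *Eif3b* and *Eif4a1* were called against the mean of the others under all 3 scales, and 25 genes were called against P9 under all 3.

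**Figure D2:**
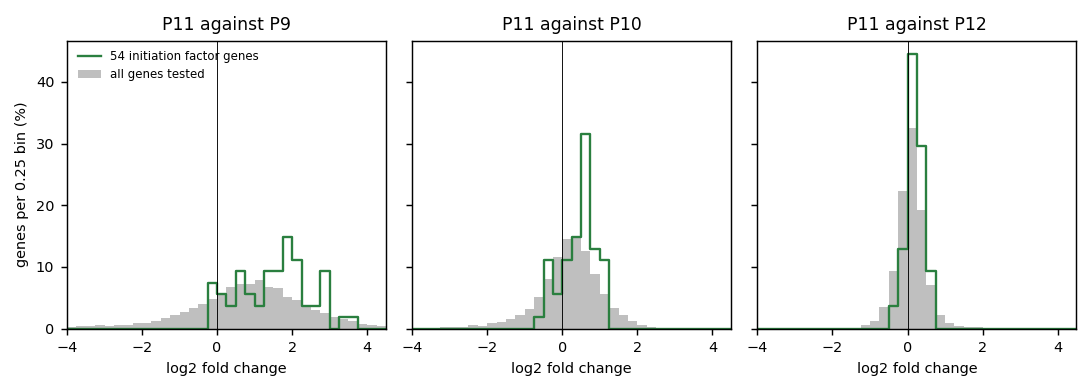
Distribution of log2 fold changes of P11 against P9, P10 and P12, for all genes tested (grey) and the 54 initiation factor genes (green line), as the percent of genes per bin of 0.25. The initiation factor genes have medians of 1.69, 0.55 and 0.20, against 0.90, 0.25 and 0.10 for all genes.

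Every eIF3 gene was higher in P11 than in P9. The 14 genes summed to 678 ± 89.6 CPM (P9), 1837 ± 31.6 (P10), 2709 ± 106 (P11) and 2298 ± 186 (P12). All 14 were higher in P11 than in P9 and all 14 in P12 than in P9, and 13 were higher in P10 than in P9. The fourteenth, *Eif3c*, had a log2 difference of 0.91 between P10 and P9, just under the 2-fold cutoff. The shares of all genes tested that were higher in these 3 comparisons were 46.8%, 43.2% and 34.1%. Against the mean of the others, 7 of the 14 were called in P11, where 19.9% of all genes tested were higher. They were *Eif3b*, *Eif3j2*, *Eif3g*, *Eif3e*, *Eif3i*, *Eif3l* and *Eif3m*. The fold changes of P11 over P9 ran from 1.45 (*Eif3k*) to 2.89 (*Eif3e*) on the log2 scale, with a median of 2.21. All 14 stayed positive under the 3 scales. They had 14, 13 and 12 calls against P9, and 7, 2 and 2 against the mean of the others. Under these scales 46.8%, 33.8% and 23.6% of all genes tested were higher than in P9. Against the mean of the others 19.9%, 12.9% and 8.22% were, so the 2 calls after rescaling lie near the background.

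*Eif3b*, which encodes a core scaffold subunit, lies on chromosome 5 (140419328 to 140443360, mm10, plus strand). It measured 35.4, 35.4 and 48.8 CPM in P9, 124, 124 and 125 in P10, 292, 258 and 271 in P11, and 168, 216 and 163 in P12. The 3 P11 libraries were above all others, the 3 P9 libraries below all others, and the P10 libraries close together. The log2 fold change came to 2.78 (SE 0.14, adjusted p = 4.74e-09) against P9, 1.13 (SE 0.14, adjusted p = 0.000118) against P10 and 1.50 (SE 0.12, adjusted p = 2.04e-06) against the mean of the others. Against P12 it was 0.60 (SE 0.14, adjusted p = 0.141), which was not called. *Eif3b* was the only eIF3 gene called between P11 and P10, where 12.8% of all genes tested were higher.

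*Eif3g* encodes an RNA-binding subunit that contacts the scanning ribosome. It measured 14.6, 14.8 and 13.5 CPM in P9, 38.7, 43.3 and 49.1 in P10, 71.96, 70.8 and 84.7 in P11, and 59.5, 52.7 and 47.1 in P12. No P11 library overlapped another group, and the P9 libraries were the lowest. On the log2 scale P11 differed by 2.37 (SE 0.14, adjusted p = 1.01e-08) against P9 and 1.22 (SE 0.11, adjusted p = 4.6e-06) against the mean of the others.

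The loosely bound eIF3j subunit is encoded in the mouse by *Eif3j1* and *Eif3j2*. *Eif3j2* measured 5.23, 8.64 and 19.6 CPM in P9, 30.3, 27.3 and 31.9 in P10, 54.3, 53.4 and 74.4 in P11, and 39.5, 54.4 and 39.4 in P12. P9 replicate 3 was well above the other P9 libraries, yet below every P10 library. In limma the log2 fold change came to 2.57 (SE 0.34, adjusted p = 1.34e-05) against P9 and 1.34 (SE 0.28, adjusted p = 0.00116) against the mean of the others. Of the 61-base words of its longest coding transcript, 89.3% also occur in *Eif3j1*, so the split of reads between them is uncertain. Their sum does not depend on that split, and it was 23.6 ± 9.83 CPM (P9), 57.7 ± 6.67 (P10), 109 ± 12.9 (P11) and 87.7 ± 10.3 (P12).

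**Figure D3:**
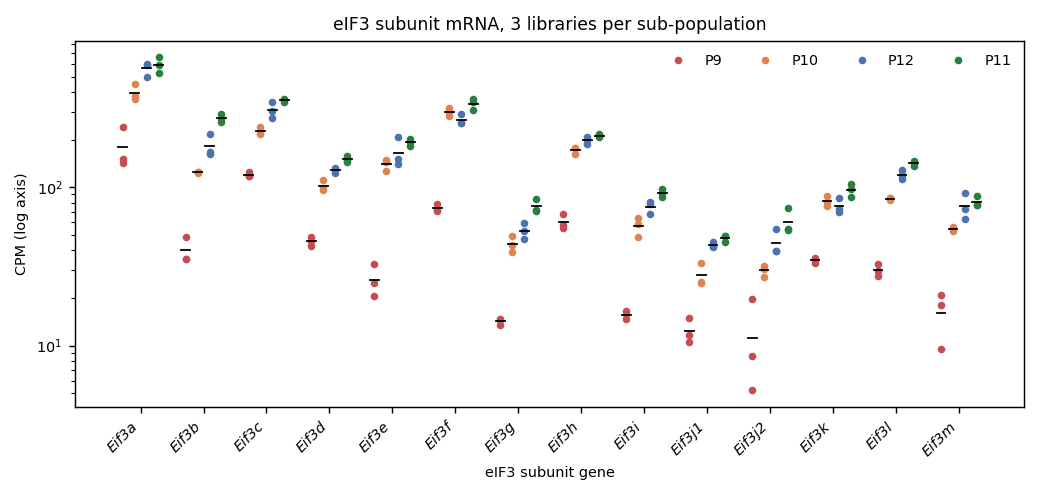
CPM of the 14 eIF3 genes on a log axis, with 1 point per library and a bar at the mean of each sub-population (n = 3). In every gene the 3 P9 points lie below the other 9, which held for 45.9% of all genes tested. *Eif3b* has its 3 P11 points (258 to 292 CPM) above the rest.

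The ternary complex and start codon genes were divided. Of 13, 8 were higher in P11 than in P9 and 4 were higher than the mean of the others, with 0 lower. *Eif1a*, *Eif2a*, *Eif2s1* and *Eif1ad* made up the 4. Of all genes tested, 46.8% were higher than in P9 and 19.9% higher than the mean of the others. After rescaling and quantile normalization the 8 became 6 and 4, and the 4 became 1 and 1. *Eif1* and *Eif5*, whose products guard the choice of the start codon and trigger GTP hydrolysis on eIF2, had log2 differences of -0.13 and 0.11 between P11 and P9, with 95% intervals of -0.51 to 0.26 and -0.17 to 0.38. The *Eif5* value was -0.40 after rescaling and -0.01 after quantile normalization. *Eif1b*, *Eif2d* and *Eif2s3y* also were not called.

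*Eif1a* encodes eIF1A, which helps the small subunit to scan. It measured 2.86, 8.69 and 8.59 CPM in P9, 34.9, 33.1 and 39.5 in P10, 63.7, 60.6 and 69.6 in P11, and 36.3, 53.01 and 44.2 in P12. The P9 libraries were lowest and the P11 libraries highest, with no overlap. P11 was above on the log2 scale by 3.31 (SE 0.31, adjusted p = 5.35e-07) against P9 and 1.57 (SE 0.25, adjusted p = 0.000183) against the mean of the others, and *Eif1a* stood among the calls under all 3 scales. Its paralog *Eif1ax* on the X chromosome was 1.66 above P9 and 1.01 above P10 on the log2 scale, both called, though the call against P10 held in only 17 of 24 alternative settings.

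*Eif2a* encodes eIF2A, a protein apart from the eIF2 trimer that can deliver the initiator tRNA on its own. It measured 8.79, 10.4 and 18.1 CPM in P9, 58.6, 60.8 and 53.7 in P10, 85.4, 82.8 and 81.3 in P11, and 72.2, 105 and 80.3 in P12. P12 replicate 2 was the highest library, and the P11 and P12 libraries overlapped. The log2 fold change of P11 was 2.76 (SE 0.22, adjusted p = 1.21e-07) against P9 and 1.09 (SE 0.18, adjusted p = 0.000206) against the mean of the others.

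*Eif2s1* encodes the alpha subunit of eIF2, the one the stress kinases phosphorylate, on chromosome 12 (78861819 to 78887010). It measured 17.4, 17.3 and 29.4 CPM in P9, 35.8, 37.2 and 47.9 in P10, 82.6, 92.5 and 99.7 in P11, and 63.6, 98.9 and 65.7 in P12. The P9 values lay below all others, and P12 replicate 2 fell within the P11 range. By limma P11 differed on the log2 scale by 2.12 (SE 0.22, adjusted p = 1.55e-06) against P9, 1.18 (SE 0.22, adjusted p = 0.00108) against P10 and 1.20 (SE 0.18, adjusted p = 0.000119) against the mean of the others. Of the other eIF2 subunits, *Eif2s2* (beta) was 1.46 and *Eif2s3x* (gamma) 1.85 above P9 on the log2 scale, both called.

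The gamma subunit of eIF2 has a copy on each sex chromosome, *Eif2s3x* on X and *Eif2s3y* on Y, and the copies differed in pattern. This pair was picked after its values were seen, so the contrast is described and not tested. *Eif2s3x* measured 39.9, 44.7 and 56.9 CPM in P9, 105, 112 and 95.7 in P10, 178, 171 and 160.2 in P11, and 155, 155 and 137 in P12. *Eif2s3y* measured 51.9, 67.9 and 61.96 CPM in P9, 82.8, 81.3 and 65.2 in P10, 67.9, 74.1 and 63.3 in P11, and 71.9, 99.9 and 72.8 in P12. The X copy had its 3 P11 libraries above all others and its P9 libraries below, whereas the P11 libraries of the Y copy overlapped those of every other group. The log2 ratio of X to Y went from -0.36 ± 0.24 in P9 to 0.45 ± 0.11 in P10, 0.88 ± 0.24 in P12 and 1.31 ± 0.10 in P11 (SD, n = 3). The log2 difference of *Eif2s3y* between P11 and P9 was 0.18 (95% interval -0.16 to 0.52), and it was -0.33 after rescaling and -0.31 after quantile normalization.

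The copies are alike enough that reads could be shared, so their coding sequences were compared. Both are 1416 bases long and differ at 194 of them, an identity of 86.3%, and the longest identical run is 34 bases, shorter than the reads of 61 bases. All 696 read-length windows that lie within 1 exon hold 4 to 14 differences, with a median of 8. A stretch of exon 9 with the median number shows this, taken from GENCODE M21 transcripts (coding bases 890 to 950, chrX:94199776-94199836 on the minus strand and chrY:1017386-1017446 on the plus strand of GRCm38). Capitals mark the 8 bases that differ.
Eif2s3x: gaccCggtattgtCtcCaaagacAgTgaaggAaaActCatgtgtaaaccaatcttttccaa
Eif2s3y: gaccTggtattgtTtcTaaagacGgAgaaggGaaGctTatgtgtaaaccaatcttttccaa
The X copy does share 36% of its words with the processed pseudogene *Gm2223*, and the sum of *Eif2s3x* and *Gm2223* was 50.3 ± 11.1 CPM (P9), 109.5 ± 7.33 (P10), 181 ± 10.4 (P11) and 159.8 ± 17.2 (P12).

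The exchange factor eIF2B also was lowest in P9 and highest in P11. Its 5 subunits summed to 42.8 ± 4.15 CPM (P9), 94.7 ± 5.93 (P10), 142 ± 6.91 (P11) and 120.6 ± 12.1 (P12). All 5 were higher in P11 than in P9, where 46.8% of all genes tested were. *Eif2b1*, *Eif2b3* and *Eif2b5* were higher than the mean of the others, where 19.9% of all genes were. The 5 calls against P9 became 3 after rescaling and 2 after quantile normalization, where 33.8% and 23.6% of all genes were higher. The 3 against the mean of the others became 1 and 0, where 12.9% and 8.22% of all genes were higher. With 5 genes, these last counts cannot be told from the background. *Eif2b2* and *Eif2b4* were 1.05 and 1.35 above P9 on the log2 scale. Under the alternative settings these values went as low as 0.12 and 0.22, and the call was lost in 5 of 24 settings for *Eif2b2*, among them without P9 replicate 2 and without P9 replicate 3, and kept in 22 of 24 for *Eif2b4*. After quantile normalization *Eif2b2* in P11 had a log2 difference of -0.03 to the mean of the others.

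*Eif2b3*, the gamma subunit, measured 1.099, 1.65 and 3.42 CPM in P9, 6.58, 6.95 and 7.95 in P10, 17.01, 17.5 and 15.02 in P11, and 12.2, 19.1 and 13.6 in P12. The P10 libraries were close together and below every P11 and P12 library. The log2 fold change came to 2.83 (SE 0.29, adjusted p = 1.48e-06) against P9, 1.15 (SE 0.29, adjusted p = 0.00724) against P10 and 1.38 (SE 0.24, adjusted p = 0.000331) against the mean of the others. *Eif2b5*, the catalytic epsilon subunit, measured 8.64, 11.3 and 14.1 CPM in P9, 31.7, 28.96 and 24.5 in P10, 47.8, 45.8 and 46.9 in P11, and 35.4, 44.2 and 38.1 in P12. All 3 P11 libraries were above the other 9. The difference was 2.02 (SE 0.17, adjusted p = 2.76e-07) against P9 and 1.00 (SE 0.14, adjusted p = 8.05e-05) against the mean of the others. The latter sits at the 2-fold cutoff, and it was 0.94 without P9 replicate 1, 0.97 without P10 replicate 3, 0.98 without P11 replicate 1, 0.98 without P12 replicate 1 and 0.99 without P12 replicate 3, each time below the cutoff, as it was after rescaling (0.77) and quantile normalization (0.59). *Eif2b1*, the alpha subunit, measured 4.396, 5.12 and 6.17 CPM in P9, 14.03, 14.6 and 10.5 in P10, 25.9, 20.3 and 24.8 in P11, and 21.5, 21.4 and 15.1 in P12. P12 replicates 1 and 2 fell within the P11 range. The difference was 2.08 (SE 0.21, adjusted p = 1.05e-06) against P9 and 1.07 (SE 0.17, adjusted p = 0.00017) against the mean of the others.

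Of the 4 genes of the kinases that switch eIF2 off, 1 was called in P11 against P9, where 46.8% of all genes tested were higher. The 4 summed to 182 ± 8.49 CPM (P9), 249.9 ± 20.5 (P10), 220.1 ± 7.80 (P11) and 228 ± 18.9 (P12). *Eif2ak4* was called in P11, P10 and P12 against P9, and none of the 4 was called in P11 against the mean of the others. *Eif2ak1*, which encodes the heme-regulated kinase HRI, had a log2 difference of 0.30 between P11 and P9 that turned to -0.21 after rescaling and -0.12 after quantile normalization.

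*Eif2ak4* encodes GCN2, the kinase that senses uncharged tRNA when amino acids run short. It measured 8.57, 6.99 and 8.53 CPM in P9, 23.7, 23.9 and 16.7 in P10, 31.8, 30.3 and 26.3 in P11, and 23.7, 26.8 and 17.7 in P12. The P9 values were below all others, and P11 overlapped P12. On the log2 scale P11 differed by 1.81 (SE 0.20, adjusted p = 2.12e-06) against P9, and against the mean of the others it was 0.89 (SE 0.16, adjusted p = 0.000437), under the 2-fold cutoff. After quantile normalization it was not called against P9.

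*Eif2ak2* encodes PKR, the kinase that responds to double-stranded RNA. It measured 31.1, 39.1 and 56.7 CPM in P9, 47.6, 50.3 and 91.9 in P10, 45.01, 49.8 and 54.8 in P11, and 49.99, 54.1 and 66.4 in P12. P10 replicate 3, the P10 library with the high neutrophil markers, was far above the other P10 libraries, and all 4 groups overlapped. P9, where those markers were highest, had the lowest *Eif2ak2* mean, and a link to the markers was not tested. *Eif2ak3* encodes PERK, the kinase of the endoplasmic reticulum. It measured 64.8, 65.3 and 49.5 CPM in P9, 55.4, 62.9 and 63.2 in P10, 51.97, 45.6 and 62.4 in P11, and 48.7, 44.7 and 64.8 in P12. All groups overlapped here too. The log2 difference between P11 and P9 was 0.27 (95% interval -0.27 to 0.82) for *Eif2ak2* and -0.17 (-0.53 to 0.20) for *Eif2ak3*. The *Eif2ak2* value was -0.23 after rescaling and -0.37 after quantile normalization.

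**Figure D4:**
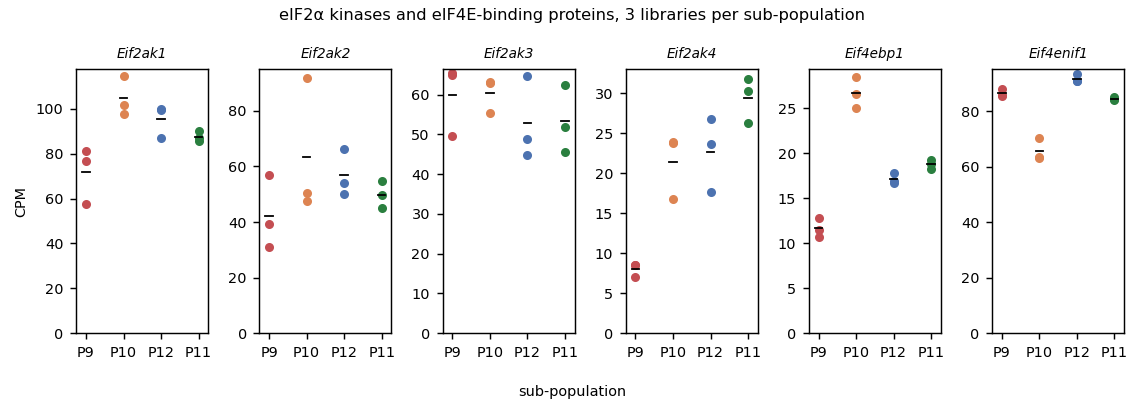
CPM of the 4 eIF2 kinase genes and of 2 eIF4E-binding regulators, with 1 point per library and a bar at the group mean (n = 3); every axis starts at 0. *Eif2ak4* has its 3 P9 points (6.99 to 8.57 CPM) below all others, *Eif4ebp1* is highest in P10 (24.99 to 28.4 CPM) and *Eif4enif1* is lowest in P10 (63.1 to 70.6 CPM).

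Of the 11 cap-binding genes, 6 were higher in P11 than in P9 (*Eif4a1*, *Eif4b*, *Eif4e*, *Eif4g1*, *Eif4a3* and *Eif4h*), with 2 higher than the mean of the others and 0 lower. Of all genes tested, 46.8% were higher than in P9 and 19.9% higher than the mean of the others, so these counts lie near the background. After rescaling and quantile normalization the 6 became 5 and 7, where 33.8% and 23.6% of all genes were higher. The 2 became 1 and 1, where 12.9% and 8.22% of all genes were higher. The 5 not called against P9 were *Eif4a2*, *Eif4e2*, *Eif4e3*, *Eif4g2* and *Eif4g3*. Members of the group share the eIF4 name, and *Eif4a3* need not act in the cap-binding complex. The group summed to 1503 ± 245 CPM (P9), 2610.2 ± 62.1 (P10), 3571 ± 191 (P11) and 3050.1 ± 228 (P12). *Eif4g2*, which encodes a relative of eIF4G that lacks the eIF4E site, made up the largest part with 559.8 ± 168 CPM in P9 and 1077 ± 95.4 in P11.

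*Eif4a1* encodes the main helicase of the cap-binding complex and lies on chromosome 11 (69666936 to 69672423, minus strand). It measured 33.8, 62.8 and 101 CPM in P9, 239, 247 and 211 in P10, 433, 363 and 449 in P11, and 261, 319.9 and 300.2 in P12. All 3 P11 libraries were above the other 9, and the P9 libraries were spread widely among themselves. In limma the log2 fold change came to 2.78 (SE 0.28, adjusted p = 1.15e-06) against P9 and 1.37 (SE 0.23, adjusted p = 0.000249) against the mean of the others. Of its 61-base words, 64% also occur in the processed pseudogene *Eif4a-ps4*, which was listed at 55.8 to 363 CPM, so reads may have been split between them. The sum of both was 130.3 ± 32.5 CPM (P9), 412 ± 18.8 (P10), 737 ± 40.8 (P11) and 561 ± 113 (P12), and the P11 libraries (697 to 779) remained above all the others.

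*Eif4e* encodes the cap-binding protein itself. It measured 17.9, 19.2 and 28.5 CPM in P9, 37.7, 36.3 and 46.9 in P10, 73.9, 80.6 and 87.4 in P11, and 69.7, 78.8 and 62.03 in P12. The P10 libraries lay between P9 and the others, and P12 replicate 2 fell within the P11 range. P11 was above on the log2 scale by 1.88 (SE 0.18, adjusted p = 5.72e-07) against P9 and 1.03 (SE 0.14, adjusted p = 7.07e-05) against the mean of the others. The latter call was lost without P9 replicate 1 (0.99) and without P11 replicate 3 (0.97), and the value was 0.80 after rescaling and 0.74 after quantile normalization.

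*Eif4b* encodes a cofactor of the helicase. It measured 119, 136 and 157 CPM in P9, 369.6, 400.3 and 366 in P10, 589.8, 553 and 574 in P11, and 470.1, 533 and 421 in P12. The 4 groups followed the order P9, P10, P12, P11 without overlap. The log2 fold change of P11 was 2.06 (SE 0.13, adjusted p = 1.61e-08) against P9. Against the mean of the others it was 0.98 (SE 0.10, adjusted p = 1.14e-05), under the cutoff, and it passed the cutoff without P9 replicate 3 (1.01), P11 replicate 2 (1.00) or P12 replicate 2 (1.01).

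Some cap-binding genes differed less between P11 and P9 than a paralog of theirs. The pairs shown, like the pair of eIF2 gamma copies, were chosen after their values were seen and are given without a test. The log2 ratio of *Eif4a1* to *Eif4a2* in CPM was -1.26 ± 0.58 in P9 and 0.93 ± 0.14 in P11. Reads of *Eif4a1* may have been split with *Eif4a-ps4*, so this ratio is less certain. The sum of these 2 was 130.3 ± 32.5 CPM in P9 and 737 ± 40.8 in P11, against 145 ± 21.2 and 217 ± 4.06 for *Eif4a2*. For *Eif4g1* over *Eif4g3* it was -0.58 ± 0.27 and 1.33 ± 0.09, and for *Eif4e* over *Eif4e3* it was -0.75 ± 0.03 and 0.59 ± 0.16. In each of the 4 pairs the ratio was higher in all 3 P11 libraries than in any P9 library. A shift of such a ratio between libraries depends neither on their scale nor on the lengths of the genes, whereas its sign does depend on the lengths. Per kilobase of exon, *Eif4g1* was already at 23.9 CPM and *Eif4g3* at 21.7 in P9, and *Eif4e* was at 13.5 and *Eif4e3* at 21.2 in P11. Other paralogs had larger differences than *Eif4a2*, *Eif4e3* and *Eif4g3*. *Eif4a3* was called in P11 against P9 (1.74 on the log2 scale), and *Eif4g2* (0.98) and *Eif4e2* (0.95) lay just under the cutoff. *Eif4g3* itself had a log2 difference of -0.07 between P11 and P9 (95% interval -0.34 to 0.20).

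**Figure D5:**
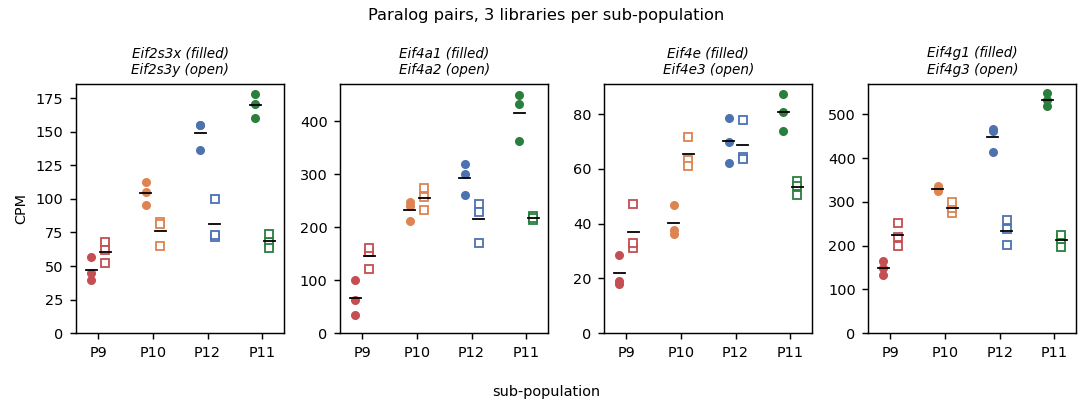
CPM of 4 paralog pairs by sub-population, with filled circles for the first gene and open squares for the second, 1 point per library and a bar at the group mean (n = 3). The first gene of each pair differs more between P9 and P11 than its partner. The log2 ratios of *Eif4a1* over *Eif4a2* are -1.26 in P9 and 0.93 in P11. Reads of *Eif4a1* may have been split with the pseudogene *Eif4a-ps4*, so that ratio is less certain. Heights of genes of different length are not comparable within a panel.

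The inhibitors of eIF4E had no call in P11 in any comparison, while 46.8% of all genes tested were higher and 11.2% lower than in P9. Their 4 genes summed to 289.8 ± 5.24 CPM (P9), 379 ± 30.2 (P10), 400.1 ± 35.9 (P11) and 388 ± 43.4 (P12). *Eif4ebp1*, the 4E-binding protein gene, measured 11.5, 10.7 and 12.8 CPM in P9, 24.99, 28.4 and 26.6 in P10, 19.2, 18.3 and 18.8 in P11, and 16.96, 16.7 and 17.8 in P12. Its 3 P10 libraries were above all others. It was higher in P10 than in P9 by 1.16 (SE 0.14, adjusted p = 9.33e-06) on the log2 scale, the only call among the 4, and under the cutoff after rescaling (0.80) and quantile normalization (0.42). The difference between P11 and P9 was 0.67 and turned to -0.41 after quantile normalization.

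*Eif4ebp2* encodes another 4E-binding protein. It measured 193, 193 and 186 CPM in P9, 299, 309.7 and 246 in P10, 336, 276 and 275 in P11, and 324, 243 and 267 in P12. The P9 libraries were lowest, and the other groups overlapped. *Eif4ebp3* ranged from under 0.001 to 2.11 CPM, at which few alignments stand behind a value. *Eif4enif1*, which encodes the eIF4E transporter 4E-T, was named after its values were seen. It measured 88.2, 85.5 and 85.8 CPM in P9, 63.4, 63.1 and 70.6 in P10, 85.3, 83.99 and 84.6 in P11, and 93.7, 91.1 and 90.8 in P12. The P10 libraries were below all others and the P12 libraries above, with a log2 difference of 0.48 (SE 0.10, adjusted p = 0.00404) that was under the 2-fold cutoff.

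Of the 3 remaining genes, *Eif5a* was the most abundant per length. *Eif5a* encodes the hypusine-bearing factor that eases peptide bond formation on the ribosome, on chromosome 11 (69916714 to 69921958, minus strand). It measured 184, 169 and 199.8 CPM in P9, 261, 293 and 314 in P10, 663, 606 and 697 in P11, and 553, 463 and 377 in P12. All 3 P11 libraries were above the other 9, and the P12 libraries above the P10 libraries. By limma P11 differed on the log2 scale by 1.83 (SE 0.14, adjusted p = 1.29e-07) against P9, 1.18 (SE 0.14, adjusted p = 9.92e-05) against P10 and 1.17 (SE 0.12, adjusted p = 8.12e-06) against the mean of the others. Against P12 it was 0.51 (SE 0.14, adjusted p = 0.18), which was not called. Per kilobase of exon, *Eif5a* was at 275.7 ± 19.2 CPM in P11, followed by *Eif4a1* at 234 ± 25.7 and *Eif3h* at 164 ± 3.49, and it was at 77.5 ± 6.55 in P9.

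*Eif5a2*, its rarer paralog, measured 0, 0 and 0.281 CPM in P9, 4.17, 5.21 and 4.25 in P10, 9.002, 6.02 and 4.87 in P11, and 8.33, 9.12 and 8.57 in P12. It was at 0 in P9 replicates 1 and 2, and P11 overlapped P12. It was called in P11 against P9 and against the mean of the others, where the fitted log2 fold change came to 1.21 (SE 0.22, adjusted p = 0.000526). Because P9 was at or near 0, the fitted value depends on the pseudocount, and the call against the mean of the others was lost without P11 replicate 1 (0.99), with a pseudocount of 2 (0.69) and after quantile normalization (0.86). *Eif6*, which encodes a factor that keeps the large ribosomal subunit from joining too early, measured 27.1, 17.7 and 17.6 CPM in P9, 28.3, 33.4 and 33.8 in P10, 49.2, 34.7 and 44.5 in P11, and 34.6, 31.5 and 32.2 in P12. P9 replicate 1 was above the other P9 libraries but below all the rest. The log2 fold change came to 1.04 (SE 0.18, adjusted p = 0.00018) against P9, and the call was lost without P9 replicate 2 (0.94), P9 replicate 3 (0.93) or P11 replicate 1 (0.93), with a pseudocount of 2 (0.98), after rescaling (0.54) and after quantile normalization (0.21).

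The 6 genes called between P11 and P10 were *Eif1ad*, *Eif1ax*, *Eif2b3*, *Eif2s1*, *Eif3b* and *Eif5a*, from 1.01 to 1.18 on the log2 scale. *Eif2s1* and *Eif5a* were called under all 3 scales. *Eif1ad*, a nuclear protein gene with an eIF1A-like domain, was not called between P10 and P9 (0.41). In P12 replicate 3, the library with the high monocyte markers, 28 of the 54 genes were below both other P12 libraries and 9 were above both. The same count was not made over all genes, so it cannot be read as a trait of these genes. A link to the markers or to the scale of that library was not tested. Leaving it out changed no count against P12, which was 0 in every alternative setting.

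Initiation factor promoters were searched for the letters CACGTG, the E-box bound by MYC and its partner MAX, which are known regulators of translation genes. RefSeq promoter windows of 300 bases (250 before to 50 after the start, GRCm38.p6) were matched for 43 of the 54 genes by symbol. The motif reads the same on both strands. It was found in 10 of the 43 (23.3%), in 11.9% of the tested genes with a window and in 8.09% of all genes with one. Among genes higher in P11 than in P9 it was in 9 of 30 (30%), and among those not called in 1 of 13 (7.69%). The same split by call was not made over all genes, so a link between motif and calls cannot be read from it. A gene was counted if any of its windows held the motif, as for *Eif4e* (1 of 2 windows) and *Eif5a* (3 of 6). These are counts of letters and were not tested. The stretches of the 4 genes described above by their values in each library are shown with the motif in capitals. They are *Eif4e* (chr3:138527028-138527057, plus strand), *Eif4a1* (chr11:69672595-69672624, minus strand), *Eif5a* (chr11:69920791-69920820, minus strand) and *Eif5a2* (chr3:28781123-28781152, plus strand). The motifs lie 222, 183, 172 and 136 bases before a RefSeq start of each gene. For *Eif4e* (138526179 to 138559696) and *Eif5a* (69916714 to 69921958) the stretch lies inside the annotated gene, before an internal start.
Eif4e: ctcgccagcgacCACGTGatcacttttttt
Eif4a1: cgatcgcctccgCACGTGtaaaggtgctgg
Eif5a: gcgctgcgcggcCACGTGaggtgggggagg
Eif5a2: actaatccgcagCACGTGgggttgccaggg
The flanks of the motif differ between the 4 genes.

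Genes that act beside the initiation factors were counted from lists, shown here for P11 against the mean of the others, where 19.9% of all genes were higher. The elongation factors were all higher, 7 of 7, and all 7 were also higher in P10 and P12 than in P9 (34.1% and 43.2% of all genes). *Eef1g*, a subunit of the elongation factor exchange complex, had P9, P10, P11 and P12 means of 20.5 ± 3.497, 112 ± 15.3, 258 ± 26.8 and 185 ± 52.7 CPM and was higher by 1.78 (SE 0.15, adjusted p = 3.28e-06) on the log2 scale. *Eef1a1*, which carries aminoacyl tRNA to the ribosome, had P9, P10, P11 and P12 means of 1016 ± 129, 6814 ± 603, 8979.9 ± 365 and 7546 ± 846 CPM and was higher by 1.27 (SE 0.14, adjusted p = 1.74e-05) on the log2 scale. *Eef2*, the translocase, was 1.14 higher on the same scale and *Eef2k*, the kinase that restrains it, 1.07. Of 7 termination and recycling genes, 3 were higher: *Abce1*, which splits ribosomes after termination (1.53), the release factor gene *Gspt1* (1.30) and *Abcf1* (1.03).

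The hypusine of eIF5A is made from spermidine, and 4 of 5 genes of that route were called higher in P11 in the same comparison, as *Eif5a* was. *Odc1*, the first enzyme of polyamine synthesis, had P9, P10, P11 and P12 means of 15.6 ± 3.09, 29.3 ± 2.23, 108 ± 5.89 and 68.5 ± 17.8 CPM. *Srm*, spermidine synthase, had P9, P10, P11 and P12 means of 1.58 ± 0.406, 13.01 ± 0.571, 48.1 ± 6.24 and 26.8 ± 7.103 CPM. *Dohh*, which completes the hypusine, had P9, P10, P11 and P12 means of 2.49 ± 1.27, 10.2 ± 1.12, 17.99 ± 0.825 and 12.8 ± 1.997 CPM. The log2 fold changes were 1.78, 2.42 and 1.33, and *Odc1* and *Srm* were also called between P11 and P10 (1.87 and 1.84).

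Of 15 initiation helpers, 5 were called higher in the same comparison. Among them were *Dhx33* (1.66), an RNA helicase, *Pabpc4* (1.81), a poly(A)-binding protein, and *Pdcd4* (1.62), which inhibits eIF4A. *Pdcd4* had P9, P10, P11 and P12 means of 32.1 ± 3.96, 172 ± 11.4, 324 ± 28.6 and 210.0 ± 28.5 CPM. Of 11 genes of mTOR and MNK signalling, 1 was higher, *Rps6* (1.14), while *Mtor* (0.64) and *Rptor* (0.83) were under the cutoff. The mitochondrial initiation factors *Mtif2* (0.95) and *Mtif3* (0.44) were not called, 0 of 2.

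The integrated stress response, the program that phosphorylated eIF2 sets off, went both ways. Of 14 genes tested, 1 was higher and 3 were lower in P11 against the mean of the others, and 3 were higher and 4 lower than in P9, where 46.8% and 11.2% of all genes were. *Psat1*, an enzyme of serine synthesis, had P9, P10, P11 and P12 means of 5.05 ± 2.75, 32.7 ± 4.97, 114 ± 10.03 and 73.5 ± 13.1 CPM, 4.47 above P9 on the log2 scale. *Atf3*, a transcription factor of the response, had P9, P10, P11 and P12 means of 0.393 ± 0.104, 4.502 ± 1.52, 0.287 ± 0.0872 and 0.798 ± 0.482 CPM, and it was higher in P10 than in P9 (2.44). *Sesn2*, a brake on mTOR, was lower in P11 than in P9 (-1.30), and *Ddit3*, which encodes the factor CHOP, had P9, P10, P11 and P12 means of 11.3 ± 0.2904, 6.18 ± 1.45, 6.06 ± 1.203 and 3.96 ± 1.22 CPM and was not called in P11 against any group. *Atf4*, its central factor, had a log2 difference of 0.20 between P11 and P9 (95% interval -0.12 to 0.52). None of the genes of these lists was called between P11 and P12.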

How the data were processed

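The authors sequenced poly-A RNA of 100 sorted cells per library, with 14 cycles of cDNA amplification by the sample labels. By their methods, single reads of 61 bases were mapped to mm10 by STAR and quantified on Ensembl annotation by the Partek E/M method before normalization. STAR 2.5.3a, Partek, bcl2fastq 2.17, Bowtie2, DESeq2 3.5 and DESeq are listed in the processing notes of the submitters. The labels name a SMART-Seq kit and the methods a directional kit, so the use of strand in counting is not settled here. The deposited values are CPM plus 0.0001, and that offset was subtracted.

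Values were transformed as log2(CPM + 0.5), and genes that reached 1 CPM in 3 libraries or more were fitted with limma 3.58.1 (R 4.3.3, data.table in version 1.17.8), with 1 mean per sub-population, shared variance over the 12 libraries and an intensity trend. In each of 7 comparisons the p-values of all 13450 genes were adjusted together (Benjamini-Hochberg), and a call needed an adjusted p under 0.1 with a difference over 2-fold. Errors are SD over 3 libraries, and intervals of log2 differences are 95% intervals of limma. Of the low values, 76.6 to 83.1% lay within 0.1 of whole alignments, so whole reads could not be recovered and no count test was run. The fit was tested on simulated data.

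The members, factor groups and other lists were chosen with earlier results of these data known. Named genes are, per factor group, up to 3 with the largest log2 fold change of P11 against the mean of the others, and *Eif3b*, *Eif4a1* and *Eif5a*. Other genes are named by their counts or, where stated, after their values were seen. From each list of other translation genes up to 3 with the smallest adjusted p in that comparison are named, and always *Atf4*, *Ddit3*, *Eef1a1* and *Eef2*.

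Alternatives were pseudocounts of 0.1 and 2, no filter or one at 10 CPM, median ratio rescaling, quantile normalization, the replicate number as a block, only the groups compared, a threshold of 0.05 on the adjusted p, protein-coding genes alone, no minimum fold, no intensity trend, and each library left out in turn. Words of 61 bases were compared over GENCODE M21 transcripts. Sequences and plots were handled in Python 3.11.15 (numpy 2.4.6, pandas 2.3.3, matplotlib 3.10.9).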

Additional observations from a re-analysis of the deposited data

How the results depend on the processing

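The calls depended most on the scale and on the 2-fold cutoff. Shares in parentheses are those of all genes tested that were higher. Against the mean of the others, the 18 higher genes became 6 (12.9%) after median ratio rescaling, 5 (8.22%) after quantile normalization and, with 1 lower, 41 (50.1%) without a minimum fold. For P11 over P10, the 6 became 3 (8.91%) after quantile normalization and, with 2 lower, 35 (34.4%) without a minimum fold. For P10 over P9, the 26 became 16 (24.8%) and 12 (16.3%) under the 2 scalings and, with 1 lower, 48 (55.8%) without a minimum fold. For P12 over P10, the 0 became 1 with a pseudocount of 0.1 and, with 2 lower, 24 (21.8%) without a minimum fold. Leaving out 1 library at a time gave 15 to 20 higher genes against the mean of the others, 35 to 38 for P11 over P9, 5 to 8 for P11 over P10, 26 to 29 for P10 over P9, 33 to 35 for P12 over P9 and 0 to 2 for P12 over P10, with 0 lower throughout. For P11 over P12 it gave 0 in both directions. No fit on the libraries compared alone was made for P11 against the mean of the others, which uses all libraries.

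Signs turned only for genes that were not called. Against the mean of the others, 6 of the 54 genes turned sign under a rescaling: *Eif1b*, *Eif2b2*, *Eif4a2*, *Eif4ebp1*, *Eif4enif1* and *Eif5*. Of these, *Eif4ebp1* went to -0.126 after rescaling and -0.414 after quantile normalization. From the other translation genes, *Mtif3* went to -0.081 after quantile normalization. With 1 library left out at a time, *Eif4ebp3* ran from -0.418 to 0.215 (0.092 without P9 replicate 1, 0.215 without P11 replicate 3), *Eif2ak2* from -0.132 to 0.038 (0.015, 0.038 and 0.008 without P9 replicate 3, P10 replicate 3 and P11 replicate 1) and *Ddit3* from -0.216 to 0.051 (without P11 replicate 1). With each named gene taken against the mean of the others and in the comparisons that called it, 3661 results kept direction and side of the cutoffs, 79 lost a call, 14 gained one and 9 turned. In the other 6 comparisons, 42 of 324 values of the 54 genes turned sign under a rescaling, none of them called. The cause was not tested.

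With the replicate number as a block, 18 genes were higher against the mean of the others, as without it, and no other count of initiation factor genes moved by over 1.5 times. Over all genes, the calls for P11 over P12 went from 3 to 119 (0.736% higher, 0.149% lower) with the block. Deviations of same-numbered libraries correlated at -0.016 to 0.527 (median 0.138, 12 of 18 pairs over 0.1), and those of differently numbered ones at -0.487 to 0.274 (median -0.12, 9 of 36 over 0.1). A library correlated best with its own number in 23 of 36 comparisons, a hint of shared sources. The study took the cells from 3 diseased mice, but no label ties a number to a mouse and not every pair was over 0.1, so the fit without the block was kept.

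Counting error limits low values, such as those of *Eif4ebp3* in all groups and of *Eif5a2* in P9. How far above such levels it reaches, with 100 cells per library, was not tested. Of the 54 genes, 13 share 10% or more of their 61-base words with another transcript, and 17 overlap a gene on the opposite strand, while the use of strand in counting is not settled, so their levels are less certain.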
